A study of Mus musculus with 12 samples.

Results

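The genes described here encode the respiratory chain and the ATP synthase of mitochondria, read across neural stem cell cultures of early passage, of late passage, and of late passage grown with vesicles. Members were chosen by symbol: the mitochondrial subunit genes (mt-Nd, mt-Co, mt-Cytb and mt-Atp) and the nuclear genes of the Nduf, Sdh, Uqc, Cox and Atp5 families. This rule took 100 of the 34745 genes in the table, 13 encoded in mitochondrial DNA and 87 in the nucleus; 4 further names marked as pseudogenes by the ending -ps were left out. Of the 87 nuclear names, 6 among those tested belong to assembly or other factors and not to subunits (Uqcc1, Uqcc2, Uqcc3, Atp5s, Atp5sl and Cox7a2l). Ndufa4, named for complex I, is a subunit of complex IV, and Atp5sl is an assembly factor of complex I, but both are counted under their names here. Counts by complex follow the names and include the 6 factors.

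Polyadenylated RNA of wild-type C57BL/6 mouse hippocampal neural stem cells was sequenced in 12 libraries of 3 groups. The cells of all groups were grown with B27, EGF, bFGF, heparin and antibiotics. Libraries of passage 2 (P2, n = 4) received no treatment that the labels name, and libraries of passage 10 came from cells given either PBS (P10 PBS, n = 4) or ESC-sEVs, vesicles shed by embryonic stem cells (P10 EV, n = 4), from passage 2 on. According to the study's title, the question was whether such vesicles rejuvenate ageing stem cells. The sources used here do not give the age or number of the animals. The library names carry a culture code that is shared by the libraries with the same replicate number, but nothing says that a code stands for a separate animal, so p-values measure the spread between these samples.

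Oxidative phosphorylation passes electrons from NADH (through complex I) and from succinate (through complex II) by way of complexes III and IV to oxygen, and the proton gradient that this builds drives the ATP synthase, complex V. Complexes I, III, IV and V combine subunits from both genomes, and complex II is wholly nuclear. Proliferating neural stem cells are known to rely strongly on glycolysis, and mitochondrial respiration gains weight as they differentiate into neurons.

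Whole-library facts that bear on these genes were as follows. Total counts ran from 10736538 to 16807647 per library, and 16058 genes passed the filter on low counts, among them 95 members. The 5 members that did not pass are tissue-restricted subunits of complex IV (Cox4i2, Cox6a2, Cox7b2, Cox8b and Cox8c). CPM is the count of a gene relative to the library total, which is scaled for single genes and unscaled for sums of markers. All 12 neural stem cell markers had reads in each group, at a summed level of 5865 to 7532 CPM. Markers of other cells reached 2319 to 3313 CPM for oligodendrocyte, 881 to 4093 CPM for astrocyte and 517 to 811 CPM for neuron lists. Markers of microglia, erythroid cells and muscle summed to at most 2.51, 2.83 and 3.95 CPM. For Itgam, an entry was at 0 in all 12 libraries and another had reads in P2 replicate 1 alone. Markers of endothelial and mural cells lay between 7.66 and 54.8 CPM. Liver transcripts summed to 41.1 to 51.2 CPM in P2 replicates 1 and 2, P10 PBS replicate 1 and P10 EV replicate 1, and to at most 1.67 CPM in the other 8. In bulk RNA, fewer cells of a type and less RNA per cell cannot be told apart.

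Sequences are shown first for the mitochondrial genes, because nuclear copies share their reads. The 80-base stretches below come from transcripts of GENCODE M21 (build GRCm38), 5′ to 3′. The first pair sets mt-Co1, the catalytic core of complex IV, at transcript positions 1054 to 1133, beside the pseudogene Gm29216 of chromosome 1, with the 6 bases that differ in capitals; over 492 shared bases these are all the differences, an identity of 98.8%. The second pair sets the first 80 bases of mt-Co3, another core subunit of complex IV, beside Gm28437 of chromosome 1. Here nothing is in capitals, since all 783 shared bases are identical.
mt-Co1: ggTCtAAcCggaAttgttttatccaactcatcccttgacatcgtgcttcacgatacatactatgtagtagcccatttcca
Gm29216: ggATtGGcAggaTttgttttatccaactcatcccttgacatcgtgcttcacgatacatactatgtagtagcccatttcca
mt-Co3: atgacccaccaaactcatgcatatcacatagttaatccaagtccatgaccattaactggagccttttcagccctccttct
Gm28437: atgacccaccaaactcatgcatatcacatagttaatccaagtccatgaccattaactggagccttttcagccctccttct

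To measure this overlap, each transcript was divided into all its words of 50 bases, and words also present in a transcript of another gene outside mitochondrial DNA were counted. The words of mt-Co2 were shared at 100%, those of mt-Co3 at 99.9%, mt-Atp6 at 99.5%, mt-Nd4l at 98.8% and mt-Nd3 at 98%. For mt-Nd4 the share was 62.2%, for mt-Co1 51.1%, for mt-Nd2 8.19% and for mt-Nd5 7.61%. No word of mt-Nd1, mt-Nd6, mt-Cytb or mt-Atp8 was shared, so these 4 genes have no exact copy of 50 bases or more among annotated transcripts. The 43 bases of mt-Atp8 that overlap mt-Atp6 do lie in Gm10925. Copies outside annotated transcripts were not searched. Of the 87 nuclear members 53 shared no word and none shared 50% or more, so copies touch the mitochondrial genes much more than the nuclear ones. Between 0.902 and 0.941 counts were assigned to Gm28437 for each count of mt-Co3 in the 12 libraries, and 3.62 to 4.39 to Gm10925 for each count of mt-Atp6, the membrane subunit of ATP synthase through which protons pass. Reads of such a gene and of its copy cannot be told apart. The genes mt-Atp8 and mt-Atp6 also overlap each other by 43 bases, mt-Nd4l and mt-Nd4 by 7, and mt-Nd5 and mt-Nd6, which lie on opposite strands, by 14; the sources used here do not say whether counting used strand. Among the 87 nuclear members, exons of 26 overlap an exon of another gene on the opposite strand, those of 5 on the same strand, and those of 58 neither.

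**Figure D1:**
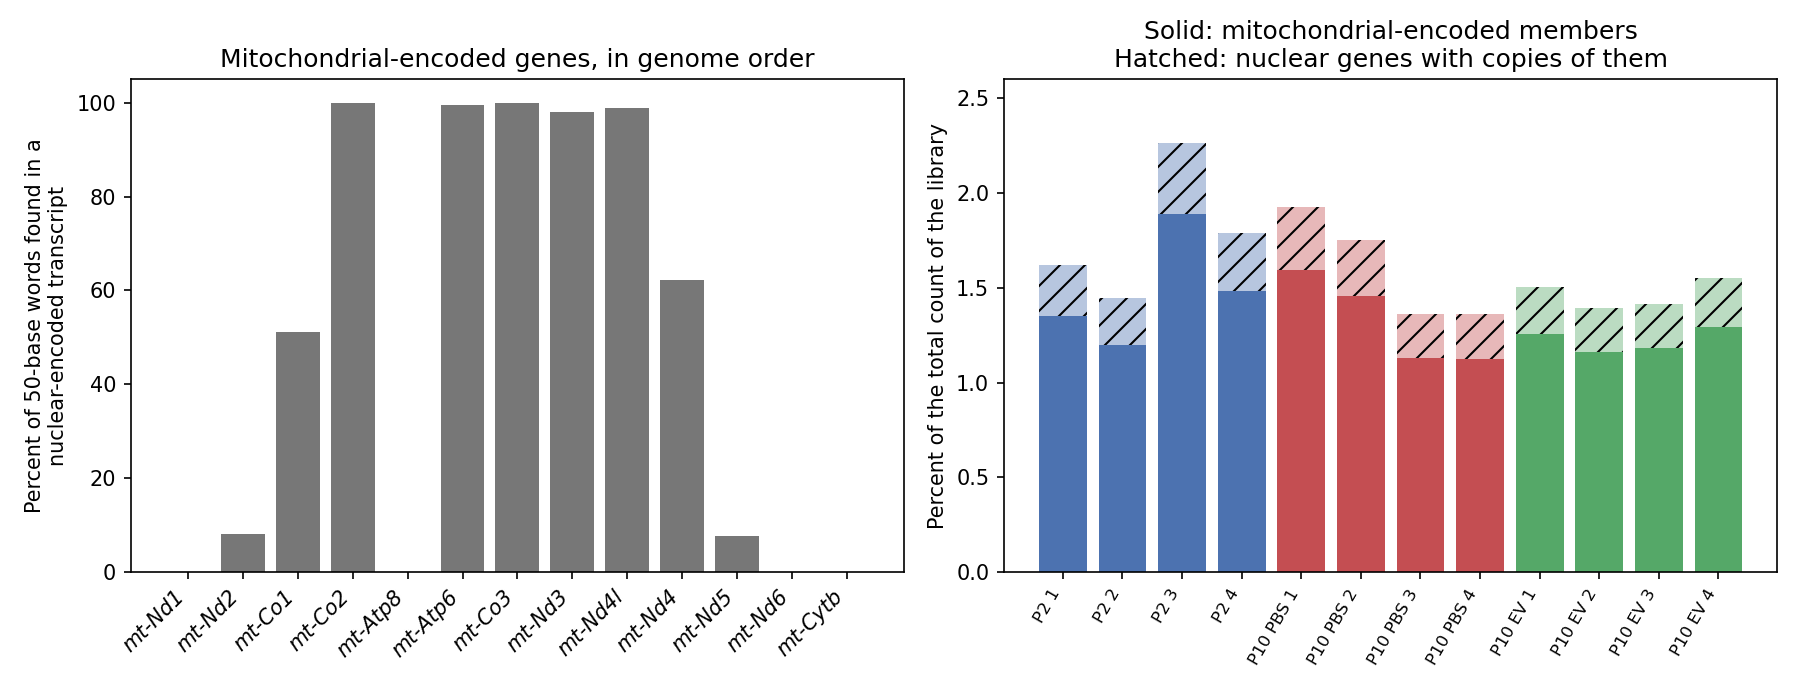
Left, percent of the 50-base words of each mitochondrial-encoded gene that lie in a transcript of the nuclear genome, with 100% for mt-Co2 and none for mt-Nd1, mt-Atp8, mt-Nd6 and mt-Cytb. Right, percent of the total count of each library from the 13 mitochondrial-encoded members (solid) and from 10 nuclear genes with copies of them (hatched), blue for P2, red for P10 PBS and green for P10 EV.

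Mitochondrial-encoded members supplied a small and uneven part of these poly-A libraries. Their share of all counts was 1.35, 1.2, 1.89 and 1.48% in the P2 libraries, in the order of their replicate numbers, 1.59, 1.46, 1.13 and 1.12% in the P10 PBS libraries and 1.25, 1.16, 1.18 and 1.29% in the P10 EV libraries. The means were 1.48% ± 0.296 (SD, n = 4), 1.33% ± 0.237 and 1.22% ± 0.0619, and the ranges of the 3 groups overlapped. The P10 EV libraries lay closest together. Adding the 10 nuclear copies raised the means to 1.78%, 1.60% and 1.47% without changing their order. The copies took 0.196 to 0.211 counts per mitochondrial count in all libraries, a narrow range beside that of the shares themselves. A single gene, mt-Co1, held 58.2% to 68.8% of the mitochondrial counts of a library.

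In the deposited values per length, mt-Co1 was also the most abundant member, at a mean of 5421 FPKM over the 12 libraries. Next were mt-Co3 at 1453 and mt-Cytb, the cytochrome b of complex III, at 807. The rank of mt-Co2, at 614, is uncertain, since its copy Gm28661 held 49369 counts beside its own 66859. The order of the nuclear members depended on the gene length used. In the deposited FPKM, which are scaled for gene length and depth, Cox8a, a small subunit of complex IV, stood at 692 and Atp5b, the catalytic beta subunit of ATP synthase, at 244. Those values imply a length of 545 bases for Cox8a and 6918 for Atp5b, whereas the longest GENCODE M21 transcripts have 550 and 1916. Rescaled to the transcripts, Atp5b was at 881, above mt-Cytb, and Cox8a at 686. Atp5a1, the alpha subunit, was at 347 in place of 176 FPKM. Core subunits of complex I were lower on both scales, with Ndufs1, which carries iron-sulfur clusters, at 14.4 FPKM (60.2 rescaled) and Ndufv1, which binds NADH, at 8.97 (31.2 rescaled). The lengths of mt-Co1, mt-Co3 and mt-Cytb were the same in both.

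P10 PBS was set against P2 for the effect of passage without vesicles. Calls were made in edgeR's quasi-likelihood test, at a p under 0.05 after Benjamini-Hochberg adjustment over all 16058 genes. Over all tested genes, 0.928% were called, and among the 95 members 1 was, Cox6b2. The fitted log2 fold changes of the nuclear members had a median of 0.021, with 50 of 82 above 0, and those of the 13 mitochondrial members a median of 0.09; the median over all genes was -0.0085. Oligodendrocyte and astrocyte markers had medians of -1.04 and -0.83, with 6 of 8 and 5 of 7 below 0 and Sox10 called at -4.39 ± 0.80 (adjusted p = 0.0243, edgeR). Above 0 were Olig1 and Olig2 (0.12 and 0.255) and, of the astrocyte markers, S100b and Aldoc (0.95 and 0.29). The summed oligodendrocyte level overlapped, with 2361 to 3142 CPM in P10 PBS and 2319 to 3313 CPM at P2. The part of these markers was not tested. Of all members 37 of 95 were below 0, against 51.2% of all genes. An unadjusted p under 0.05 was reached by 2 members that were lower (7.65% of all genes were) and by 3 that were higher (5.97%). The 4 libraries of each group did not overlap for 1 member that was lower and 1 that was higher, against 3.12% and 2.58% of all genes.

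Cox6b2 (ENSMUSG00000051811; chromosome 7, 4751792 to 4753094) encodes a form of a small subunit of complex IV that is known from testis, in place of the widely expressed Cox6b1. Its level was 3.14, 7.60, 4.91 and 4.54 CPM in the P2 libraries and 1.57, 1.84, 1.31 and 1.53 CPM in the P10 PBS libraries. Every P10 PBS library lay below every P2 library, and the fold change was -1.69 ± 0.29 on the log2 scale (SE, adjusted p = 0.0194, edgeR). In P10 EV it stood at 2.07, 2.44, 2.39 and 1.55 CPM, again below all of P2 (-1.26 ± 0.28, adjusted p = 0.0666). Against P10 PBS the P10 EV level differed by 0.43 ± 0.30 (adjusted p = 0.801), and those groups overlapped. The counts behind these values were small, 14 to 104 per library, and the gene shared no 50-base word or exon with another gene. The call was lost without P10 PBS replicate 1, 3 or 4 and when the 8 libraries were fitted alone (adjusted p up to 0.187 over all settings), with the fold change below 0 in each.

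The common form Cox6b1 was far higher. Its level was 92.6, 103, 125 and 94.0 CPM at P2, 149.6, 104.9, 89.5 and 87.3 CPM in P10 PBS and 101, 84.6, 92.8 and 78.0 CPM in P10 EV, groups that overlapped. In the deposited values Cox6b1 had a mean of 202 ± 24.8 FPKM (SD, n = 4) at P2 beside 1.76 ± 0.622 FPKM for Cox6b2. These imply 2807 bases for Cox6b2, whose longest transcript has 585, and rescaled to the transcripts the means were 165 and 8.46. The promoters of this pair, the 250 bases before and the 50 after the start of each gene in RefSeq (GRCm38.p6), are printed because the genes encode the same subunit and differ so much in level. Capitals mark matches, on either strand, to the motifs searched below. Cox6b1 (chr7:30626065-30626364, minus strand) held an ETS motif and Cox6b2 (chr7:4753045-4753344, minus strand) an Sp1 box.
Cox6b1: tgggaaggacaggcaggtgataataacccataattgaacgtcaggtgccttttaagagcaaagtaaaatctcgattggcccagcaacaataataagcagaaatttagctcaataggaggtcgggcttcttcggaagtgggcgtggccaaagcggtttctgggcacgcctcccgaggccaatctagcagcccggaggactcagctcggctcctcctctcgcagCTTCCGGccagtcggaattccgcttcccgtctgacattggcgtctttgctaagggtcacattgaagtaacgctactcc
Cox6b2: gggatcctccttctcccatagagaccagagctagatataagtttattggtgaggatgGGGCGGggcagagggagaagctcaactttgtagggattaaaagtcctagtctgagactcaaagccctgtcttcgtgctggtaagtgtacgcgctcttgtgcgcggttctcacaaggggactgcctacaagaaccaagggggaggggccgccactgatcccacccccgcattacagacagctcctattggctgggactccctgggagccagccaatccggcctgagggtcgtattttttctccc

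The other tissue-restricted forms of subunits were also low, and several were highest in single P2 libraries. Cox6a2, the form of heart and skeletal muscle, had 0, 6, 93 and 85 counts in the P2 libraries, 7, 1, 3 and 7 in P10 PBS and 8, 8, 4 and 0 in P10 EV. P2 replicates 3 and 4 held nearly all of it, and it did not pass the filter, so no test was made. In the same libraries the summed astrocyte markers were highest, at 4093 and 2461 CPM against 881 to 1818 CPM in the rest, while muscle markers summed to 3.18 and 2.93 CPM, inside the range of the rest, with Ckm and Myh4 at 0; their part in the level of Cox6a2 was not tested. A part of the exons of Cox6a2 overlaps Itgad on the opposite strand. Cox7a1, another muscle form, stood at 0.927, 0.804, 2.12 and 0.825 CPM at P2, 1.16, 0.367, 0.374 and 0.872 CPM in P10 PBS and 0.650, 0.336, 0.0822 and 0.497 CPM in P10 EV, values near the filter. All P10 EV libraries lay below all P2 libraries (-1.49 ± 0.55, adjusted p = 0.177). Cox8b had at most 21 counts, Cox4i2, the form induced by low oxygen, at most 8, Cox7b2 at most 2, and Cox8c, a testis form, had 0 counts in all 12 libraries.

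Ndufa4l2, the paralogue of Ndufa4 that low oxygen induces, had the lowest fold change of any tested member in both comparisons with P2. Its level was 0.285, 2.48, 1.69 and 2.39 CPM at P2, 0.136, 0.275, 0.0936 and 0.872 CPM in P10 PBS and 0.0591, 0.588, 0.493 and 0.435 CPM in P10 EV. P2 replicates 2, 3 and 4 were above every late library, but P2 replicate 1 was not. The fold changes were -2.24 ± 0.75 for P10 PBS and -2.14 ± 0.73 for P10 EV against P2 (adjusted p = 0.211 and 0.156). Only 1 to 34 counts per library lay behind them, and the exons overlap Shmt2 on the opposite strand. Without P2 replicate 1 it was called lower in both comparisons (adjusted p = 0.0342 and 0.0205, edgeR). That fit called 1172 and 2793 of all 16058 genes, against 149 and 94 with all libraries. Ndufa4 itself stayed between 53.9 and 72.4 CPM in all libraries.

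**Figure D2:**
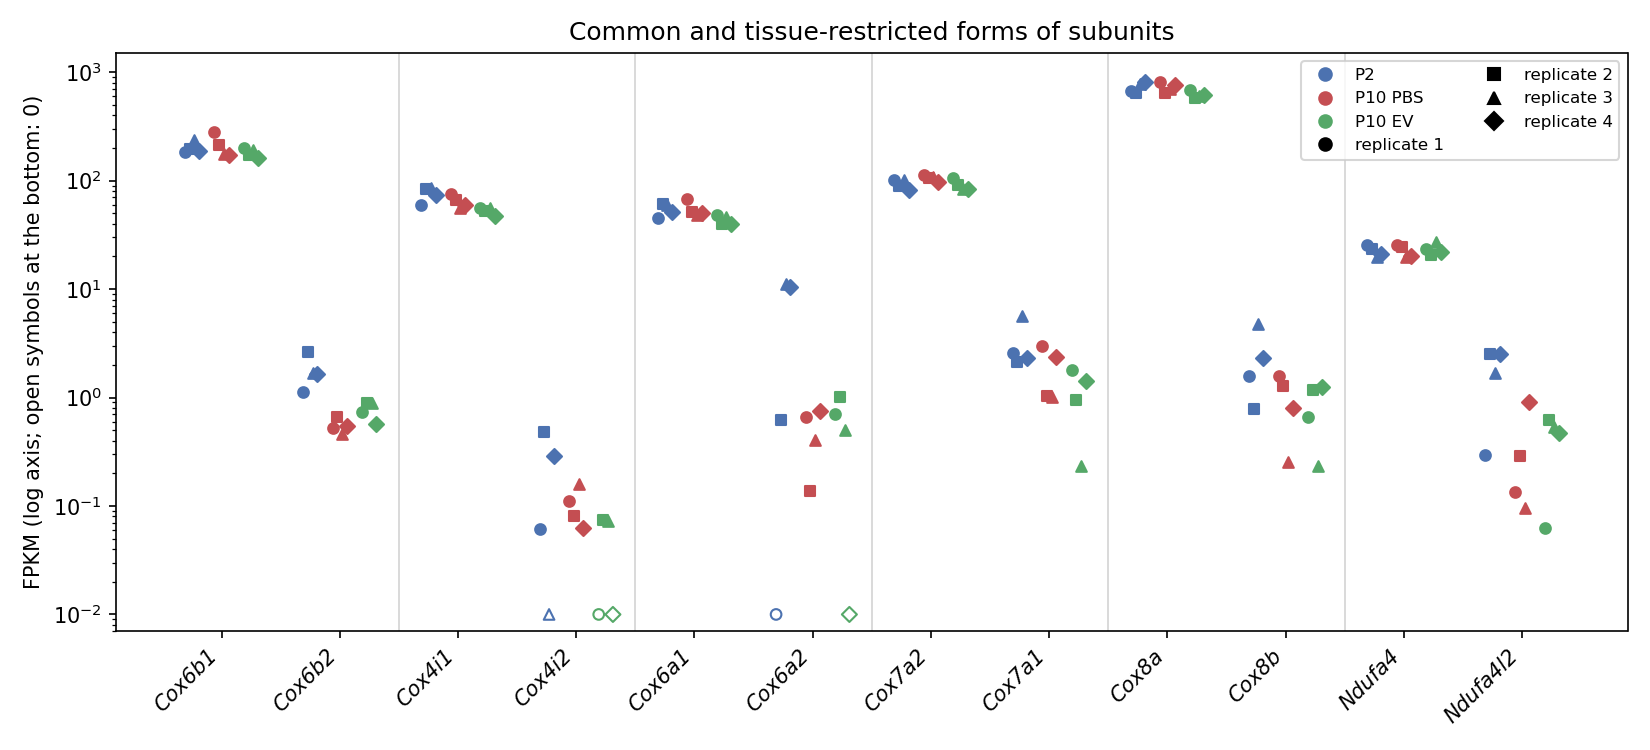
FPKM on a log axis of the common form (left of each pair) and the tissue-restricted form or paralogue (right) of 6 subunits, 1 symbol per library, coloured by group and shaped by replicate number; gaps between forms also reflect the gene lengths that the FPKM imply. Open symbols at the bottom are values of 0; Cox6b2 is lower in every P10 library than in every P2 library, and Cox6a2 is high in P2 replicates 3 and 4.

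No member of complex III or of ATP synthase was called between P2 and P10 PBS, and most were above 0. In complex III, which passes electrons from ubiquinol to cytochrome c, 10 of 11 nuclear members were above 0, with a median of 0.16; Uqcrb, a small subunit, lay at 0.25 ± 0.15 (adjusted p = 0.47). Of the 17 nuclear members counted under ATP synthase, Atp5s and Atp5sl among them, 12 were above 0, with a median of 0.079. Atp5a1 was 922, 859, 879 and 715 CPM at P2 and 1124, 1078, 1055 and 939 CPM in P10 PBS. Its groups did not overlap (0.31 ± 0.13, unadjusted p = 0.0296, adjusted p = 0.311, edgeR), and its exons overlap Haus1 on the opposite strand. Atp5g1 and Atp5g3, which encode the same c subunit of the rotor, lay at 0.29 ± 0.14 and 0.27 ± 0.12 (adjusted p = 0.389 and 0.354). Nuclear complexes I, II and IV had medians of -0.0098, 0.076 and -0.041. Leaving out P10 PBS replicate 1, which is described below, turned the median of all members from 0.027 to -0.048, with 64 of 95 below 0 in place of 37. Without the 4 libraries with liver transcripts it was -0.11, with 66 below 0. Without P2 replicate 1 or P2 replicate 2 alone it stayed above 0 (0.017 and 0.029). Of all libraries left out singly, only P10 PBS replicate 1 turned the sign, so the direction of the passage comparison rests on that library.

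At passage 10, P10 EV was set against P10 PBS for the effect of the vesicles. Nearly all members were lower with vesicles, by a small amount, and none was called. Of 95 members 87 were below 0, against 48.5% of all genes, and their median log2 fold change was -0.24 beside 0.0086 over all genes. The nuclear members had a median of -0.27, with 76 of 82 below 0, and the mitochondrial members -0.19, with 11 of 13. In edgeR 0 of 16058 genes were called, and the percentage called was 0; the smallest adjusted p of a member was 0.543. DESeq2 called 0.23% of all genes as lower and 0.187% as higher, with 0 members in either direction, and limma-voom and limma-trend called 0 members. At an unadjusted p under 0.05, 25 members were lower and 0 higher, or 26.3% of members against 4.39% of all genes lower and 2.85% higher. The groups did not overlap for 12 members that were lower and 0 that were higher, against 3.84% and 3.74% of all genes. A lower level of this gene class with vesicles was already known from these libraries when the members were chosen, so the counts describe it and do not test it.

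**Figure D3:**
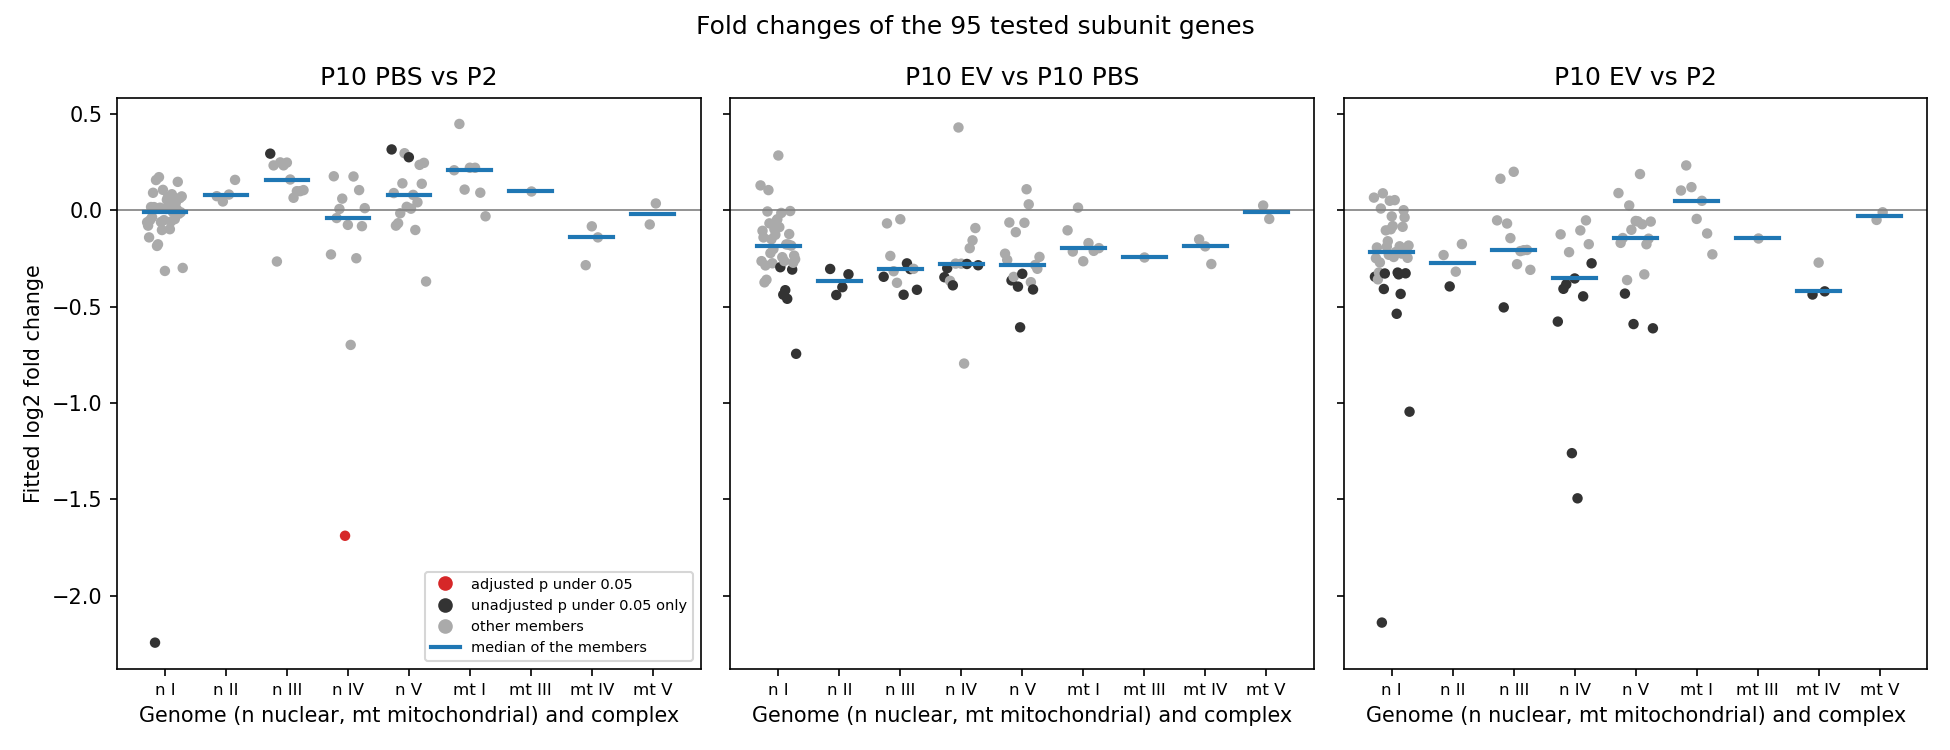
Fitted log2 fold change of each tested member in the 3 comparisons, by genome (n nuclear, mt mitochondrial) and complex, with the median of each class as a blue line. Red marks the 1 call, Cox6b2 in P10 PBS vs P2, and black marks an unadjusted p under 0.05; with vesicles 87 of 95 members lie below 0 relative to P10 PBS.

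By complex, the members below 0 with vesicles were 34 of 37 nuclear members of complex I (median -0.18), all 4 of complex II (-0.37), all 11 of complex III (-0.31), 12 of 13 of complex IV (-0.28) and 15 of 17 of complex V (-0.28). Members above 0 were Ndufa1, Ndufa4l2, Ndufb4, Cox6b2, Atp5j, Atp5j2, mt-Nd3 and mt-Atp6, from 0.013 for mt-Nd3 to 0.43 for Cox6b2, with Ndufa1 at 0.13 and Atp5j2 at 0.03. They belong to no single complex. The next values are given for complex II first, since all its genes were tested and all are of nuclear origin.

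Complex II oxidises succinate in the tricarboxylic acid cycle and hands the electrons to ubiquinone. Sdhb, its iron-sulfur subunit, was at 172, 148, 148 and 140.3 CPM in P10 PBS and 119.8, 116, 113 and 99.5 CPM in P10 EV. All P10 EV libraries lay below all P10 PBS libraries, a difference of -0.44 ± 0.14 (unadjusted p = 0.00632, adjusted p = 0.55, edgeR). Sdha, the flavoprotein subunit that holds the active site, was at 453, 332, 358 and 365 CPM and 344, 301, 306 and 269.7 CPM. P10 EV replicate 1 lay within the P10 PBS range, and the difference was -0.31 ± 0.13 (adjusted p = 0.663).

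In complex III, Uqcrc1, a core subunit, stood at 529.9, 370.4, 365 and 363 CPM in P10 PBS and 365, 285, 314 and 237 CPM in P10 EV (-0.44 ± 0.16, adjusted p = 0.601). P10 PBS replicate 1 was far above the other 3 of its group, and P10 EV replicate 1 fell among those 3. Uqcrfs1, the Rieske iron-sulfur protein, was 141, 120.2, 116 and 123 CPM and 109.7, 104, 93.1 and 97.5 CPM (-0.31 ± 0.11, adjusted p = 0.604), with no overlap. Cytochrome c1, the heme subunit, has the symbol Cyc1, which the name rule does not take; it was at -0.41 ± 0.14 (adjusted p = 0.562). Uqcrb lay nearest to 0 (-0.048 ± 0.15), with its highest level in P10 PBS replicate 1 and exons that overlap Gm10767 on the opposite strand.

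In complex IV, Cox4i1, the regulatory subunit, was 212, 175, 149 and 160.1 CPM in P10 PBS and 148, 137, 142 and 119.8 CPM in P10 EV, without overlap (-0.35 ± 0.15, adjusted p = 0.67). Cox5a was 119, 85.6, 87.1 and 91.2 CPM and 82.6, 76.8, 74.7 and 76.4 CPM, also without overlap (-0.30 ± 0.12, adjusted p = 0.643). The exons of Cox4i1 overlap Emc8 on the opposite strand, and those of Cox5a overlap Gm26631. Cox6a1, the common form of the subunit whose muscle form is Cox6a2, was at -0.39 ± 0.16 and did not overlap either (adjusted p = 0.652). Cox7a2 and Cox7b, the common forms beside Cox7a1 and Cox7b2, lay at -0.28 ± 0.12 and -0.16 ± 0.14 (adjusted p = 0.679 and 0.851), with overlap.

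In complex I, Ndufv3, a small subunit of the NADH-binding module, had the lowest fold change of a member above the 5 CPM limit of the naming rule. It was 21.1, 27.3, 42.6 and 32.0 CPM at P2, 35.3, 18.3, 22.4 and 23.8 CPM in P10 PBS and 15.6, 16, 19.3 and 8.82 CPM in P10 EV. P10 EV replicate 4 was lowest, and the P10 groups overlapped through P10 PBS replicate 2 (-0.74 ± 0.28, adjusted p = 0.612). Ndufs1 was closer to level (-0.18 ± 0.10), although its groups did not overlap, with exons that overlap Eef1b2 and Ino80dos on the opposite strand, and Ndufv1 was at -0.24 ± 0.17 with overlap. Ndufc2, a membrane-arm subunit, had the smallest unadjusted p of any member in this comparison (0.00419; -0.42 ± 0.12, adjusted p = 0.543); it lies outside the naming rule and was chosen after its values were seen.

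In ATP synthase, Atp5b was 2172, 1675, 1713 and 1761 CPM in P10 PBS and 1732, 1451, 1619 and 1320 CPM in P10 EV (-0.26 ± 0.13, adjusted p = 0.736). Its groups overlapped through replicate 1 of P10 EV. Atp5a1 was at -0.23 ± 0.13 (adjusted p = 0.76). The 3 genes of the c subunit were at -0.40 ± 0.14 for Atp5g1, -0.61 ± 0.27 for Atp5g2 and -0.33 ± 0.12 for Atp5g3, each with an unadjusted p under 0.05 and overlapping groups. Atp5j, which encodes a subunit of the stalk, was above 0 (0.11 ± 0.15); its exons overlap Gabpa on the opposite strand.

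How far each library lay from the mean of all 12 shows where the difference sat. For the 82 nuclear members the median deviation, in log2(CPM + 0.5), was -0.037, 0.061, 0.22 and 0.0075 in the P2 libraries, 0.33, 0.025, -0.036 and 0.024 in P10 PBS and -0.0095, -0.17, -0.13 and -0.26 in P10 EV. P10 PBS replicate 1 and P2 replicate 3 stood above the rest, and P10 EV replicates 2, 3 and 4 below. The deviation of P10 PBS replicate 1 was similar in all complexes, from 0.29 in nuclear complex I to 0.43 in nuclear complex III. That library also held the lowest scaling factor, 0.941, and liver transcripts, against factors of 1.008 to 1.038 in P10 EV. The part of these in the result was not tested. Without P10 PBS replicate 1 the median of the members was -0.16, with 77 of 95 below 0. Lower members at an unadjusted p under 0.05 (edgeR) were then 7 in place of 25, and the share of all genes was 2.67% in place of 4.39%. Without P10 EV replicate 2, 3 or 4 the medians were -0.22, -0.25 and -0.21, and 10, 12 and 7 members were lower at such a p. The shares of all genes in these fits were 3.49%, 3.17% and 2.55%. Without any of the 4 libraries with liver transcripts the median was -0.17, again with 77 below 0. Scaling by library totals alone gave -0.18 and 80 of 95 below 0, with 15 lower at an unadjusted p under 0.05. Over all genes the median was then 0.066, and 3.13% were lower at such a p.

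**Figure D4:**
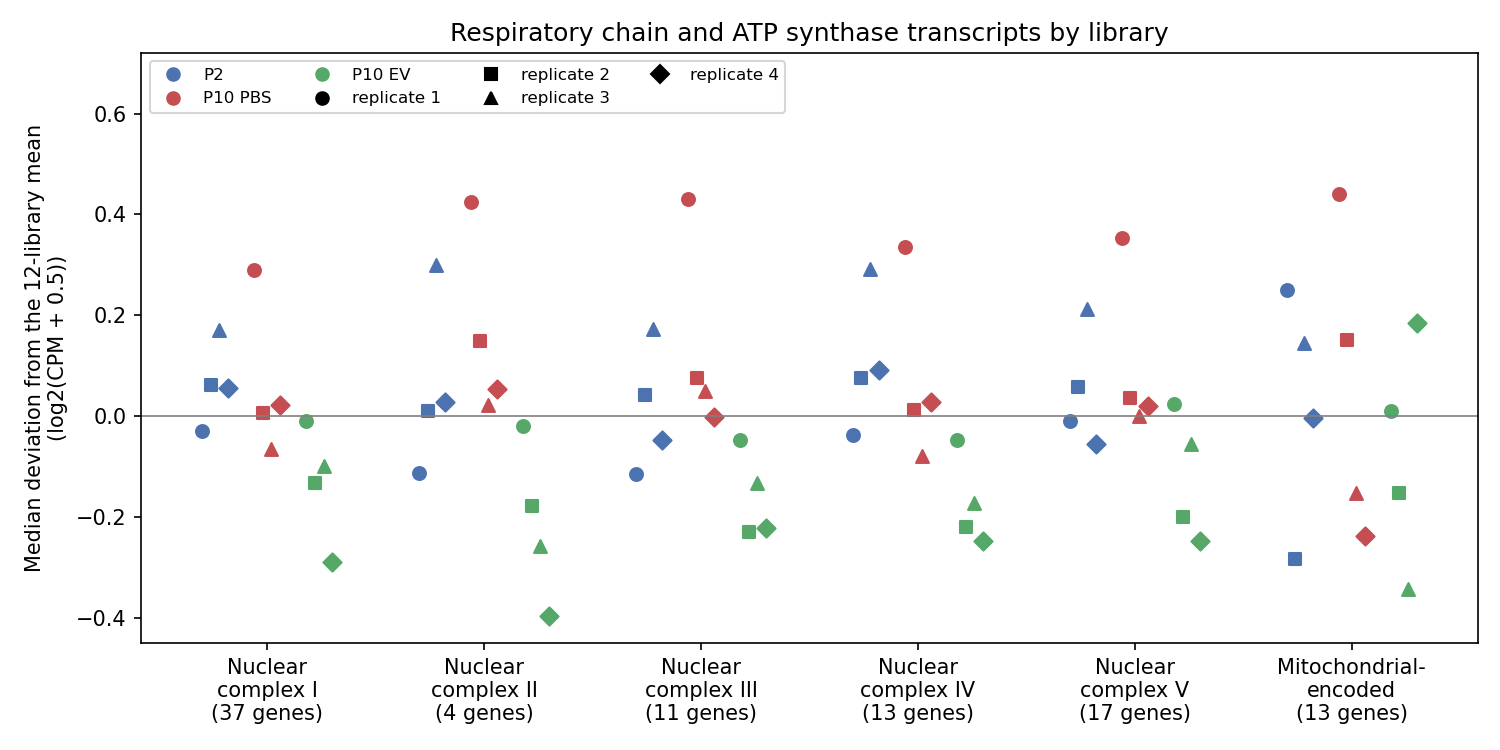
Median deviation of each library from the mean of all 12 libraries in log2(CPM + 0.5), for the nuclear members of each complex and for the 13 mitochondrial members, coloured by group and shaped by replicate number. In each nuclear complex P10 PBS replicate 1 is highest, and P10 EV replicates 2, 3 and 4 are lowest in complexes I to IV; the mitochondrial members do not follow this order.

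Libraries with the same number share a culture code, so each P10 EV library was also set against the P10 PBS library of its code. The median difference over the 82 nuclear members was -0.36, -0.21, -0.10 and -0.30 for replicates 1 to 4, with 76, 75, 52 and 70 of 82 members below 0. The medians over all genes were at most 0.0073 from 0. For the 13 mitochondrial members the differences were -0.50, -0.26, -0.20 and 0.40, with 13, 13, 12 and 1 below 0. The code with replicate number 4 thus had higher mitochondrial and lower nuclear transcripts with vesicles, while in the other 3 codes both were lower.

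For most mitochondrial members the ranges of the groups overlapped. The 3 of complex IV were below 0 in all comparisons, and mt-Co3 was the only mitochondrial gene whose P10 EV libraries lay wholly below P10 PBS. It stood at 938, 1085, 1840 and 1313 CPM at P2, 1369, 1258, 1047 and 1018 CPM in P10 PBS and 966, 987, 943 and 969.5 CPM in P10 EV (-0.28 ± 0.18 against P10 PBS, adjusted p = 0.793). The P10 EV values lay close together. For mt-Co1 the levels were 8062, 8316, 13490 and 9580 CPM, 9863, 8690, 6848 and 6961 CPM and 7573, 6864, 7392 and 7297 CPM. Its P10 EV libraries lay below all P2 libraries (-0.44 ± 0.18, adjusted p = 0.209) but within the P10 PBS range (-0.15 ± 0.18). Gm28437, the copy of mt-Co3, was at -0.29 ± 0.19 in P10 EV against P10 PBS, and Gm29216, a copy of mt-Co1, at -0.26 ± 0.19. Gene and copy share reads, so these values are not a second observation.

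The 4 genes that shared no 50-base word with an annotated transcript outside mitochondrial DNA overlapped between the late groups. mt-Cytb was 1189, 655, 1074 and 819.8 CPM at P2, 1473, 1130, 775 and 629 CPM in P10 PBS and 992, 776, 731 and 886 CPM in P10 EV. The groups overlapped (0.10 ± 0.25 for P10 PBS against P2 and -0.24 ± 0.25 for P10 EV against P10 PBS, adjusted p = 0.894 and 0.879). For mt-Nd1, a membrane core subunit of complex I, the fold changes were 0.21 ± 0.21 and -0.11 ± 0.21, for mt-Nd6, the gene on the other strand, -0.032 ± 0.16 and -0.20 ± 0.16, and for mt-Atp8 0.034 ± 0.20 and -0.046 ± 0.20. None had an adjusted p below 0.698. The highest fold change of a mitochondrial gene with passage was that of mt-Nd2 (0.45 ± 0.25, adjusted p = 0.449), whose P2 replicate 1 lay at 361 CPM among 3 others of 216 to 218 CPM. The other mitochondrial complex I genes, mt-Nd3, mt-Nd4, mt-Nd4l and mt-Nd5, lay at 0.11, 0.22, 0.22 and 0.09 for P10 PBS against P2 and at 0.013, -0.27, -0.17 and -0.21 for P10 EV against P10 PBS. mt-Co2 was at -0.084 and -0.19, and mt-Atp6 at -0.075 and 0.024.

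The balance among mitochondrial transcripts was itself variable. The ratio of mt-Co1 to mt-Cytb counts was 6.78, 12.7, 12.6 and 11.7 in the P2 libraries, 6.70, 7.69, 8.84 and 11.1 in P10 PBS and 7.64, 8.85, 10.1 and 8.23 in P10 EV. The other 3 P2 libraries had the highest ratios of all, and P2 replicate 1 had nearly the lowest. The ratio of mt-Co3 to mt-Nd4 was 1.40, 2.68, 2.87 and 2.38 at P2, 1.5, 1.88, 1.91 and 2.01 in P10 PBS and 1.66, 1.98, 2.12 and 1.44 in P10 EV, with the same P2 library lowest.

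**Figure D5:**
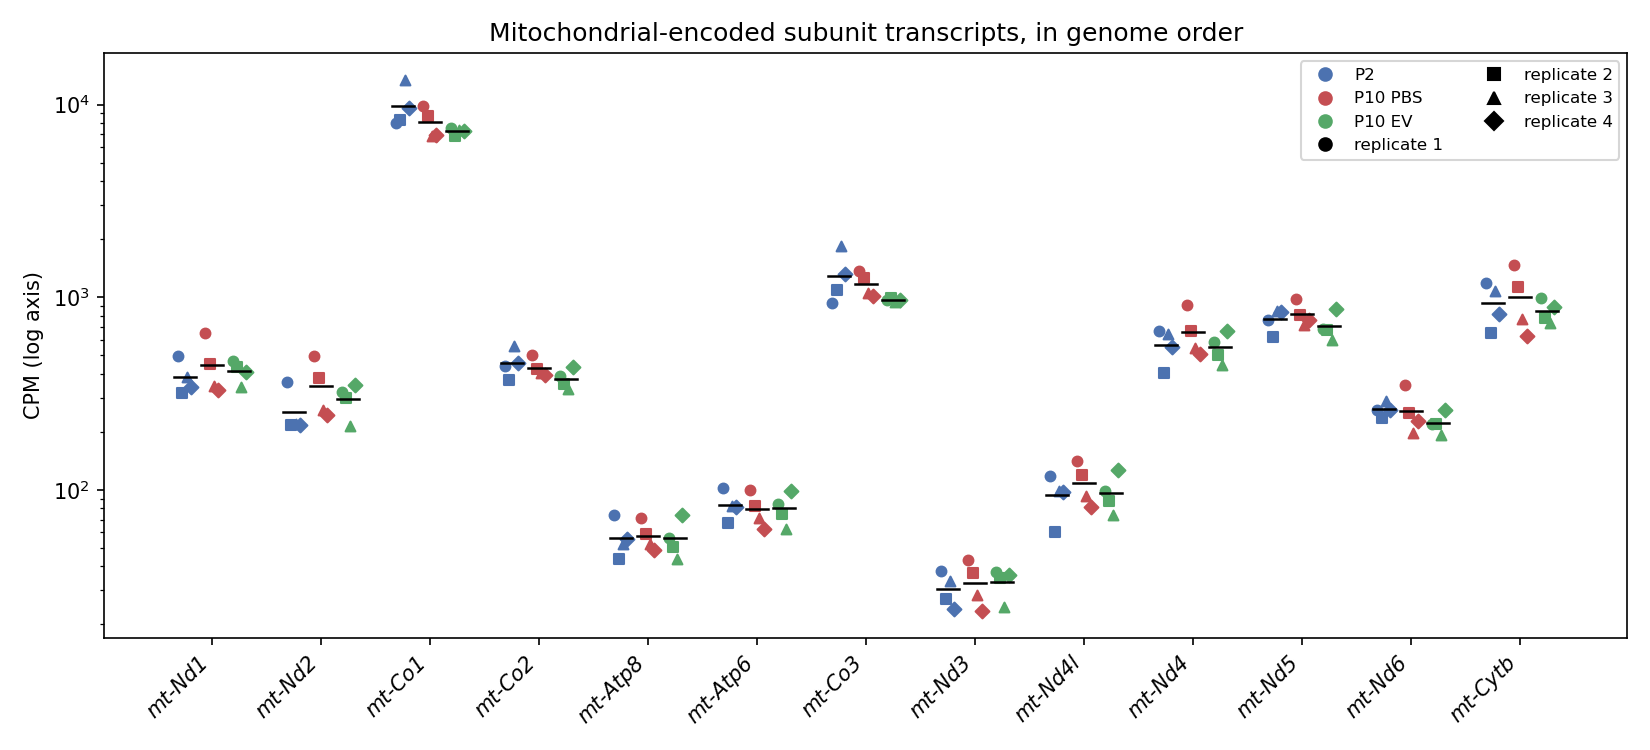
CPM on a log axis of the 13 mitochondrial-encoded genes in genome order, 1 symbol per library, coloured by group and shaped by replicate number, with a black line at each group mean. mt-Co1 is highest in all libraries, the groups overlap for most genes, and the 4 P10 EV values of mt-Co3 lie below all P10 PBS values.

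P10 EV was set against P2 to compare treated late cultures with early ones. In edgeR 0.585% of all genes and 0 of 95 members were called, the smallest adjusted p being that of Cox6b2 given above; DESeq2 called 3 members as lower, Cox4i1, Cox6b2 and Ndufv3, against 3.85% of all genes. Below 0 were 81 of 95 members and 51.2% of all genes, with medians of -0.19 over members and -0.011 over all genes. At an unadjusted p under 0.05, 25 members were lower and 0 higher, or 26.3% against 10.9% of all genes lower and 8.28% higher. The groups did not overlap for 14 members that were lower and 0 that were higher, against 4.36% and 4.66% of all genes. All 13 nuclear members of complex IV were below 0, with a median of -0.35. In the same comparison all 7 tested astrocyte markers were below 0 (median -1.45), with Slc1a2 called at -1.58 ± 0.32 (adjusted p = 0.0469, edgeR). Of the oligodendrocyte markers 5 of 8 were below 0 (median -1.02), with Cnp called at -1.60 ± 0.31 (adjusted p = 0.0433, edgeR). Olig1, Olig2 and Cspg4 were above 0, at 0.037, 0.29 and 0.069. The summed oligodendrocyte level overlapped, with 2704 to 2972 CPM in P10 EV and 2319 to 3313 CPM at P2. Neuron markers had a median of -0.056, with 5 of 9 below 0. The part of all these markers in the levels of the members was not tested. This comparison shares its P10 EV libraries with the preceding one and its P2 libraries with the first.

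Cox4i1, whose P10 values are given above, was 159, 230.4, 235 and 192 CPM at P2. The P10 EV libraries lay wholly below these, a difference of -0.58 ± 0.15 (unadjusted p = 0.00205, adjusted p = 0.0961, edgeR). P10 PBS lay between (-0.23 ± 0.15 against P2), overlapping P2. Ndufv3 was at -1.05 ± 0.28 (adjusted p = 0.0993), with P10 EV wholly below P2. Sdhb was at -0.40 ± 0.14 (adjusted p = 0.155), also without overlap. So was Atp5sl, at -0.61 ± 0.25 (adjusted p = 0.219). Cox7a2l, known as a supercomplex factor, was 73.1, 87.9, 127 and 107 CPM at P2 and 69.5, 69.5, 80.3 and 70.2 CPM in P10 EV. The difference was -0.45 ± 0.15 (adjusted p = 0.149, edgeR), with P2 replicate 1 inside the P10 EV range.

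The number of members called against P2 depended on P2 replicate 1, and so did the number over all genes, 94 as reported. Without that library 8 of 95 members were called, all lower (Cox4i1, Cox6b2, Cox7a2l, mt-Co3, Ndufa4l2, Ndufb9, Ndufv3 and Sdhb), in a fit that called 2793 of 16058 genes. Without the 4 libraries with liver transcripts 18 of 95 members were called, all lower, beside 3280 of 16058 genes. In neither fit was the share of members called above that of all genes. Without P2 replicate 3 or P10 EV replicate 4, by contrast, 11 members were lower at an unadjusted p under 0.05 in place of 25, and without P10 EV replicate 2 it was 15. The shares of all genes in these 3 fits were 7.63%, 8.12% and 8.67%, in place of 10.9%. P2 replicate 1 differed from the other P2 libraries in members too: Cox5a stood at 77.1 CPM there against 87.0 to 87.7 CPM in the others. Lists of dividing cells also separated the P2 libraries: the median deviation of 25 S-phase genes was 0.55, -0.23, -1.80 and -1.32 in P2 replicates 1 to 4 and 0.18 to 0.49 in the 8 late libraries. Its part in the levels of the members was not tested.

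Other genes of the pathway were read in the same fit, and none was called in P10 EV against P10 PBS. Of 5 chain genes outside the name rule 4 were below 0 (median -0.17). For 13 genes of the tricarboxylic acid cycle all 13 were below 0 (-0.21), and for 21 genes of glycolysis all 21 (-0.63). Citrate synthase, Cs, was at -0.39 ± 0.15 and lactate dehydrogenase Ldha at -0.66 ± 0.42 (adjusted p = 0.62 and 0.783). The assembly factors of complex I were below 0 in 14 of 15 (-0.11), those of complexes II to V in 27 of 35 (-0.089), the 28 small-ribosome genes of mitochondria in 16 (-0.018), and the 30 genes that copy and express mitochondrial DNA in 15 (-0.0029). The median of all genes was 0.0086, so the last pair lay near it. Of 15 regulators 9 were below 0; Ppargc1a, a coactivator of mitochondrial biogenesis, was at -0.28 ± 0.20, Nrf1 at 0.10 ± 0.14 and Tfam, which packages mitochondrial DNA, at -0.048 ± 0.17. In P10 PBS against P2 and in P10 EV against P2 these lists also held 0 calls.

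Astrocyte markers were lower beside the members with vesicles: all 7 tested were below 0 in P10 EV against P10 PBS (median -0.58, 0 called), and their summed level was 881 to 1082 CPM in P10 EV, 1133 to 1818 CPM in P10 PBS and 982 to 4093 CPM at P2. Summed neural stem cell markers were 5865 to 6141 CPM in P10 EV and 6170 to 6542 CPM in P10 PBS. Both sums use library totals without scaling factors. The part of these markers in the lower levels of the respiratory chain was not tested.

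The promoters of the nuclear members were searched for short motifs known from respiratory genes, on both strands of the RefSeq windows described above (GRCm38.p6). Of the 87 nuclear members 72 had an entry, with 78 windows in all, compared with 32851 windows of all genes. The core of the NRF1 site, GCGCATGC, was in 12.8% of member windows and in 2.71% of all windows. The YY1 motif, AAGATGGC, was in 16.7% and 2.75%, the ETS motif that GABP also reads, CCGGAAG, in 20.5% and 8.86%, and the site read by ERR receptors, AAGGTCA, in 11.5% and 4.72%. The CREB motif, TGACGTCA, was in 5.13% and 1.79%, the Sp1 box, GGGCGG, in 41% and 35.7%, and the TATA box, TATAAA, in 10.3% and 13.6%. The NRF1 core and the YY1 motif were thus the furthest above their share among all windows as a ratio, and the YY1 and ETS motifs as a difference in percentage points. Of the 13 windows of complex IV genes, 0 held the YY1 motif and 0 the ERR site. Median G+C was 57.3% in member windows and 52.7% in all, which by itself changes how often such letters occur. A match is a description of letters and not a site.

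The promoters of Uqcrc1 (chr9:108936398-108936697, plus strand) and Sdhb (chr4:140961021-140961320, plus strand) are printed because these core subunits were among those lowest with vesicles and both hold the NRF1 core. Capitals again mark motif matches; in Uqcrc1 the core lies after the start of the gene, and in Sdhb it lies before the start, with 3 Sp1 boxes ahead of it and an ETS motif after the start.
Uqcrc1: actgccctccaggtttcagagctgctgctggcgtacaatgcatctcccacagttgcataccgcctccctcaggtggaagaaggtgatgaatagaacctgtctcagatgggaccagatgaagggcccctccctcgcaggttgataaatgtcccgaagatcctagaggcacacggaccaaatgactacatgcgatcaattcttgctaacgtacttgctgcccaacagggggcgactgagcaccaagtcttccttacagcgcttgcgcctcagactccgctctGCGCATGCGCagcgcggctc
Sdhb: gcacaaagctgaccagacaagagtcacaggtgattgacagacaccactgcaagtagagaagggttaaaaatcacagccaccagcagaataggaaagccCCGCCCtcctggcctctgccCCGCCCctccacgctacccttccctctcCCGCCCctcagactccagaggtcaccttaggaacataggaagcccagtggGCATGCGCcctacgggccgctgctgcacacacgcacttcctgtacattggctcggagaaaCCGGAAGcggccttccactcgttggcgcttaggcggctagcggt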

How the data were processed

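Per the labels' protocols, poly-A RNA was made into TruSeq libraries and sequenced in paired reads. The authors deposited 1 table with whole-number counts per gene and, beside them, FPKM values for the 12 libraries; 0 columns of samples were left unmatched. The submitters' processing notes name HISAT2 2.0.4 and StringTie 1.3.0. Which program counted, whether it used strand and on which build: these points were not given in the sources used here. Total counts were 10736538 to 16807647 per library, and intervals and p-values cover neither PCR duplicates nor shared reads.

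Counts were fitted with edgeR 4.0.16 in R 4.3.3: filterByExpr with a minimum count of 10, TMM factors, and the quasi-likelihood test with 1 coefficient per group over all 12 libraries (9 residual degrees of freedom), adjusted by Benjamini-Hochberg over 16058 genes. Alternatives were DESeq2 1.42.0, limma 3.58.1 (voom on counts and trend on log2(FPKM + 1) of the deposited FPKM), other scalings, no filter, a replicate block, a sex term, the libraries of a comparison alone, and each library left out. The edgeR step was tested on simulated data. CPM values use the TMM-scaled total, except sums of markers, which use the raw library total. Words and promoters were matched with Python 3.11.15.

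The members and lists were chosen with earlier results of these data known, among them a lower level of oxidative phosphorylation genes in P10 EV than in P10 PBS. Named members were the called ones, the 3 highest and 3 lowest fold changes in each comparison among members with at least 5 CPM in the higher group, all mitochondrial genes, tissue isoform pairs and a core set, 47 in all, and 1 more is not reported here; others are said to be chosen after their values were seen or appear in lists of calls or of overlaps. Libraries with the same number share a culture code. In P10 EV against P10 PBS the deviations of same-numbered libraries correlated at 0.364, 0.139, 0.127 and 0.214. The best match of P10 EV replicate 3, however, was P10 PBS replicate 4. Pairs were used only for the differences by culture code and in the fits with a replicate block, and the reported fit is unpaired.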

Additional observations from a re-analysis of the deposited data

Results flagged for a closer look

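In 180 groups of 4 values (named members, ratios and medians of classes), 11 held a library whose gap to the nearest other library, divided by the whole range of the group, was above 0.829, Dixon's 95% critical value for 4. Chance gives about 1 in 20 groups.

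P10 PBS replicate 1 held 6 of these values. Uqcrc1, the core subunit of complex III, was at 529.9 CPM there against 363 to 370.4 CPM in the other 3 libraries of its group. Uqcrb was at 81.2 CPM against 54.7 to 59.0 CPM, and Cox6a1 at 85.4 CPM against 58.0 to 60.3 CPM. The median deviation from the 12-library mean was 0.33 (log2) over the nuclear members against -0.036 to 0.026, 0.35 over nuclear complex V against 2.83e-06 to 0.036, and 0.33 (0.3321) over nuclear subunits with the assembly and other factors left out.

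P2 replicate 1 gave 3 of them. Cox5a was at 77.1 CPM against 87.0 to 87.7 CPM in the other P2 libraries, mt-Nd2 at 361 CPM against 216 to 218 CPM, and the ratio of mt-Co1 to mt-Cytb counts was 6.78 against 11.7 to 12.7. Other libraries gave the remaining 2. Cox7a2l stood at 80.3 CPM in P10 EV replicate 3 against 69.5 to 70.2 CPM, and Cox7a1 at 2.12 CPM in P2 replicate 3 against 0.804 to 0.927 CPM.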

How the results depend on the processing

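The members called in P10 PBS against P2 (1 as reported) were 0 in the 8 libraries alone, 5 without the 4 libraries with liver transcripts and 0 to 2 when 1 library was left out. In P10 EV against P2 (0 as reported) they were 3 by DESeq2, 18 without the libraries with liver transcripts, 0 to 8 when 1 library was left out and 12 without replicate number 1 in all groups. In P10 EV against P10 PBS they were 0 under every alternative run. The share of mitochondrial members was 4.88%, 4.46% and 4.18% of summed FPKM at P2, in P10 PBS and in P10 EV, in the order of the shares of counts. The cause of these shifts was not tested.

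With the replicate block over 12 libraries the members called were 1, 0 and 0, with a smallest adjusted p of 0.0261, 0.564 and 0.0843 for P10 PBS against P2, P10 EV against P10 PBS and P10 EV against P2, so the pairing changed no call. With the replicate block in the 8 libraries of a comparison alone they were 0, 0 and 0 (0.187, 0.106 and 0.128). This last fit and the one without replicate number 1 were chosen after seeing the data.

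The genes called over the whole table (149, 0 and 94 in the same order) were 592, 67 and 924 by DESeq2, 39, 2 and 30 in the 8 libraries alone, 5, 17 and 18 there with the block, 252, 0 and 167 with a term for sex, 2270, 0 and 3280 without the libraries with liver transcripts, and 290, 0 and 1895 without replicate number 1. Leaving out 1 library gave 41 to 1172 in the first comparison and 7 to 2793 in the third. With 4 libraries a group, a spread of this size limits what can be called, and the mitochondrial counts hold reads that nuclear copies share.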
